A study of Bos taurus with 12 samples.

Results

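GDF9, BMP15 and KIT are the 3 genes described here, chosen by symbol from 16675 genes with an expression value, together with every m6A peak that carries their gene identifiers. They have 4 peaks in the list of germinal vesicle (GV) oocytes, 8 in the list of metaphase II (MII) oocytes and 6 in the table of differential peaks, out of 14222, 22298 and 8682 peaks. A GV oocyte still holds its intact nucleus, paused in meiotic prophase, and an MII oocyte has completed maturation and awaits fertilisation. Both groups were bovine oocytes that had been in culture, per the study's design text, with no agent or genotype named, and the labels used here state neither breed nor age nor how many oocytes or animals went into a library. Per stage, 3 libraries came from poly(A) RNA as input and 3 were immunoprecipitated with an antibody against N6-methyladenosine (m6A), a methyl mark on adenosines of messenger RNA.

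GDF9 and BMP15 are secreted members of the transforming growth factor beta superfamily that the oocyte makes and that act on the granulosa and cumulus cells around it. They are made as proproteins, cut by convertases, and bind type I and type II serine/threonine kinase receptors that phosphorylate SMAD proteins. GDF9 is known for the SMAD2 and SMAD3 branch and BMP15 for the SMAD1 and SMAD5 branch, and both are needed for normal follicle growth in sheep. KIT is a receptor tyrosine kinase on the oocyte surface. Its ligand, encoded by KITLG, is made by granulosa cells, and the pair is known for oocyte growth through phosphoinositide 3-kinase and RAS signalling.

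Input libraries of a stage had Spearman correlations across genes of 0.974 to 0.988, against 0.923 to 0.927 between stages, as a description only, since genes do not vary independently. Spacing of low values among short RNAs implied 3.53 to 3.56 gigabases of sequence in GV libraries and 2.88 to 4.61 gigabases in MII libraries, as an estimate. Between 3722 and 3765 genes were listed at 0 in GV libraries and between 1282 and 1727 in MII libraries. All 16 oocyte markers, among them ZP3, FIGLA and MOS, were detected and passed the filter on low values. Summed over the list they reached 4733 to 4795 FPKM (fragments per kilobase of transcript, scaled to library size) in GV libraries and 5554 to 5902 FPKM in MII libraries. Of the 16, 11 were higher and 2 lower in MII (32.0% and 28.8% over all genes tested). Their median log2 change was 0.45, against 0.013 over all genes tested. The labels do not say whether a stage's libraries stem from different animals or culture batches, and the spread behind each p-value may therefore be technical.

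BMP15 was the most abundant of the 3 genes and KIT the least in each of the 6 input libraries. GDF9 and BMP15 transcripts rose between GV and MII, whereas KIT did not pass the test. With limma on log2(FPKM + 1) and a Benjamini-Hochberg adjusted p under 0.05, 2 of the 3 genes were called. Of the 11739 genes tested, 60.8% were called, 32.0% higher and 28.8% lower in MII, so a count of 2 in 3 does not stand apart from the whole table. A fold change on this scale understates that of genes near or below 1 FPKM, by a wide margin for the lowest. In these bulk libraries FPKM is relative to all RNA of a library, so fewer cells of a type and less RNA per cell cannot be told apart, and poly(A) selection lets a change of tail length enter the values.

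GDF9 (ENSBTAG00000009478) lies on the minus strand of chromosome 7, from 44442457 to 44445396 in the coordinates of the deposited files (genome build not given in the sources used here). Libraries held 158.4, 162.8 and 169.5 FPKM in GV libraries 1, 2 and 3 and 253.5, 255.0 and 254.0 FPKM in MII libraries 1, 2 and 3. Every MII library was above every GV library, and the MII libraries differed from each other by less than the GV libraries did. The mean rose from 163.6 ± 5.60 to 254.2 ± 0.796 FPKM (SD, n = 3 each), a ratio of 1.55. The log2 change was 0.63 (SE 0.037, 95% interval 0.55 to 0.72, limma adjusted p = 1.2e-05), and 17.1% of tested genes had a higher log2 change. Stages also did not overlap for 67.3% of all tested genes.

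BMP15 (ENSBTAG00000045782) lies on the plus strand of the X chromosome, from 88803967 to 88810596. Its FPKM values were 314.0, 326.6 and 330.7 in GV libraries 1, 2 and 3 and 413.7, 413.1 and 395.7 in MII libraries 1, 2 and 3. The stages again did not overlap, and MII library 3 was the lowest of its stage. The mean rose from 323.8 ± 8.68 to 407.5 ± 10.2 FPKM (SD, n = 3 each), a ratio of 1.26. The log2 change was 0.33 (SE 0.038, 95% interval 0.24 to 0.42, limma adjusted p = 0.00022), and 29.9% of tested genes had a higher one. BMP15 ranked between 117 and 124 among all genes in GV libraries and between 85 and 92 in MII libraries. GDF9 ranked between 285 and 324 and between 168 and 180, and KIT between 1898 and 2189 and between 2252 and 2496.

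KIT (ENSBTAG00000002699) lies on the plus strand of chromosome 6, from 70166692 to 70254044. It measured 37.6, 37.8 and 43.6 FPKM in GV libraries 1, 2 and 3 and 37.7, 36.7 and 33.7 FPKM in MII libraries 1, 2 and 3. The stages overlapped, since MII library 1 lay above GV library 1. Means were 39.7 ± 3.40 FPKM in GV and 36.0 ± 2.10 FPKM in MII (SD, n = 3 each). The log2 change was -0.13 (SE 0.074, limma adjusted p = 0.15), with a 95% interval from -0.31 to 0.039, which covers a fall as well as no change. GV library 3 held the highest value, and without it the log2 change was -0.066 (adjusted p = 0.44, against 0.087 to 0.44 over all alternatives). Without MII library 3, which held the lowest, it was -0.087 (adjusted p = 0.38). Estimated coverage was 109 to 155 bases per transcript position for KIT, 565 to 1172 for GDF9 and 1119 to 1826 for BMP15.

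**Figure D1:**
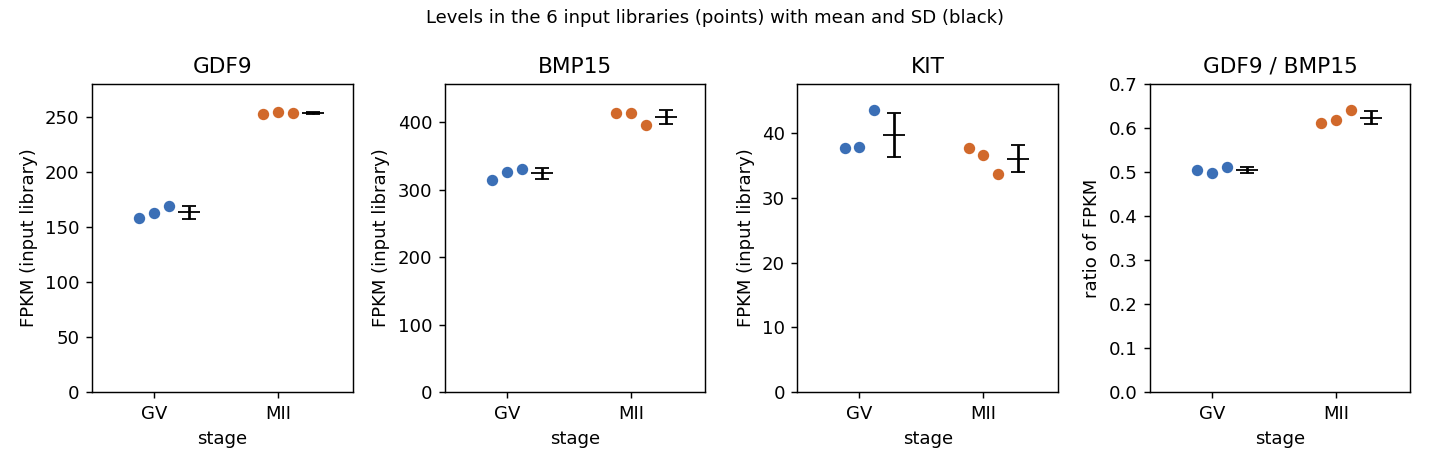
Expression of GDF9, BMP15 and KIT in FPKM (vertical axes from 0) in the 3 GV and 3 MII input libraries, and the GDF9 to BMP15 ratio of FPKM within each library; points are libraries, black marks the mean and SD. The stages are separate for GDF9, BMP15 and the ratio, while for KIT they overlap between 37.6 and 37.7 FPKM.

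GDF9 and BMP15 can form homodimers or pair with each other, and their relative amount is often studied between species. The GDF9 to BMP15 ratio of FPKM was 0.505, 0.498 and 0.513 in GV libraries 1, 2 and 3 and 0.613, 0.617 and 0.642 in MII libraries 1, 2 and 3. The ratio does not depend on how a library is scaled. It was higher in each MII library than in any GV library, with means of 0.505 ± 0.00725 and 0.624 ± 0.0157 (SD, n = 3 each). On the log2 scale the difference was 0.30, and the exact two-sided permutation test gave p = 0.1, the smallest that 3 against 3 libraries can give. The ratio to KIT went from 4.14 ± 0.219 to 7.07 ± 0.425 for GDF9 and from 8.19 ± 0.546 to 11.3 ± 0.397 for BMP15 (SD, n = 3 each). Both of those comparisons also reached p = 0.1 in the exact permutation test, and the adjusted value over these 3 comparisons was 0.1 for each.

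The genes with the most similar pattern were ranked by the root mean square difference of centred log2(FPKM + 1) values over the 6 input libraries, among 7461 other named genes averaging 5 FPKM or more. For GDF9 they were ADAM19, a metalloprotease, GJA4, the connexin of gap junctions between oocyte and granulosa cells, COLEC12, TLE6 of the subcortical maternal complex, and GLRX, a glutaredoxin. Their differences from GDF9 were 0.026 to 0.033 on the log2 scale. GJA4 was at 109.6 FPKM in GV and 170.4 FPKM in MII, and TLE6 at 62.4 and 99.4 FPKM. For BMP15 they were PGD, an enzyme of the pentose phosphate pathway, ZNF346, CBX8, FLCN and TBCE, at 0.021 to 0.026. For KIT they were DBR1, the lariat debranching enzyme, MAP4K5, STRN3, TAB3 and ZEB1, at 0.038 to 0.044. With 6 libraries in 2 stages these profiles share their stage difference, and the likeness is given as a description with no test.

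No other gene of the expression table overlapped GDF9, BMP15 or KIT. The nearest neighbour of GDF9 was UQCRQ, a subunit of respiratory complex III on the opposite strand 1904 bp away. UQCRQ had 56.9 ± 2.72 FPKM in GV and 217.8 ± 15.8 FPKM in MII (SD, n = 3 each), a log2 change of 1.92 that was larger than that of GDF9. The nearest listed genes of BMP15 and KIT were 100585 and 212075 bp away.

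m6A peaks of GDF9 and BMP15 covered nearly the whole gene in GV oocytes and were short and set at both gene ends in MII oocytes. KIT had an internal peak at the same position in both stages and further peaks in each. Peaks come as 1 list a stage, with no value for single libraries. Their enrichments are the authors' log2 values of immunoprecipitate over input, so differences between the stages carry no test here. Peak spans are genomic and include introns. All 3 genes had a peak in both lists, as did 54.1% (GV) and 73.8% (MII) of tested genes for each list on its own.

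The single GV peak of GDF9 (chromosome 7, 44442606 to 44445396) was annotated to the stop codon and spanned 94.9% of the gene. Its log2 enrichment was 2.99, above 66.1% of GV peaks. In MII there were 2 peaks, both inside that interval. The one over the start codon (44445157 to 44445396) had a log2 enrichment of 1.89, and the one over the stop codon (44442696 to 44443322) had 1.66, above 59.4% and 49.4% of MII peaks. Their spans were 240 and 627 bp, against 2791 bp in GV.

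BMP15 had 1 GV peak (chromosome X, 88803967 to 88810240) annotated to the start codon, with a log2 enrichment of 2.04 and a span of 94.6% of the gene. The GV peaks of GDF9 and BMP15 both covered more than 94% of their gene, as did 1.17% of all GV peaks. That cut lies just below the values of both genes, so the share is a description and not a test. Both are also short genes. In MII, BMP15 had a 90 bp exonic peak near the 5' end (88803997 to 88804086) with a log2 enrichment of 0.38 and a 238 bp exonic peak near the 3' end (88810032 to 88810269) with 0.90. These values were low in the list, as the first exceeded 0.684% and the second 13.8% of MII peaks. The GV peak of BMP15 and its 5' MII peak had the lowest enrichment among the peaks of the 3 genes in each list.

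KIT had 2 GV peaks, an internal exonic peak (chromosome 6, 70205403 to 70208652) with a log2 enrichment of 2.39 and a 150 bp peak in the 3' UTR (70253865 to 70254014) with 3.41. The 3' UTR peak was above 78.6% of GV peaks but had a weak adjusted p of 0.012 in the authors' list, against 1.6e-29 for the internal one. The 4 MII peaks began with one over the start codon (70166692 to 70166812) with 1.06. The internal peak had the same start and end as in GV and a log2 enrichment of 1.42. The other MII peaks, 70210024 to 70221331 and 70241507 to 70245274, had 1.36 and 0.86. Only 17.4% of genes with a MII peak had 4 or more. The 3' UTR peak of GV had no overlapping peak in the MII list, and 3 MII peaks had none in the GV list; a peak that is not listed is not evidence of an unmethylated site.

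**Figure D2:**
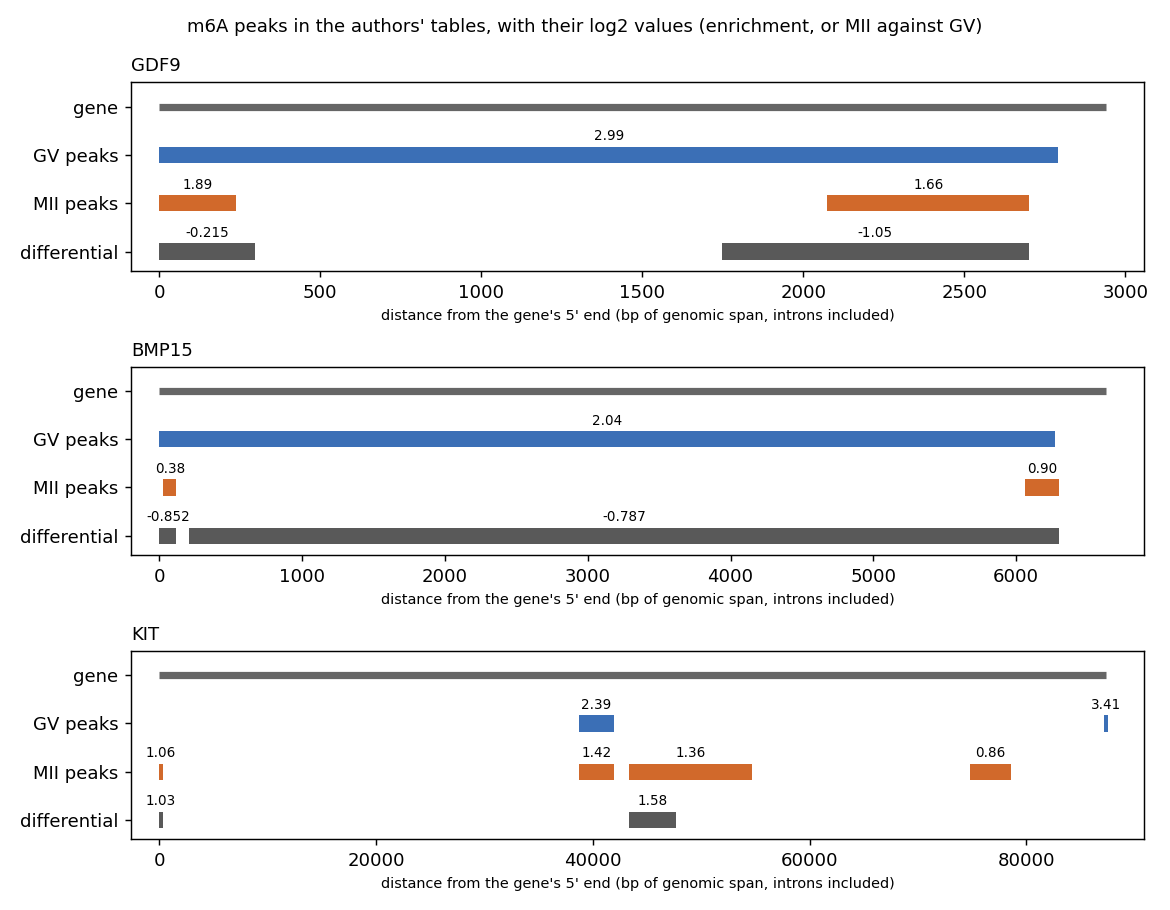
Peaks of the 3 genes drawn along the gene from its 5' end (horizontal axes in bp of genomic span), with GV peaks in blue, MII peaks in orange and differential peaks in grey; the number on each bar is the log2 enrichment, or for differential peaks the log2 change of MII against GV in the authors' deposited table, and the narrowest KIT bars are widened to stay visible. GDF9 and BMP15 have 1 long GV peak and 2 short MII peaks each, and KIT shares 1 internal peak between the stages.

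Where a GV and a MII peak of the 3 genes overlapped, the MII enrichment was lower in 5 of 5 pairs, as it was in most pairs of the whole lists. Median log2 enrichments of 2.62 (GV) and 1.67 (MII) set the whole lists apart by -0.95, and 68.9% of all 10154 overlapping pairs had the lower value in MII, with a median difference of -0.69. The internal KIT peak differed by -0.98. The GDF9 MII peaks over the start and stop codon differed from the 1 long GV peak by -1.10 and -1.33. The BMP15 MII peaks differed from its 1 long GV peak by -1.66 and -1.13. MII peaks covered 8.60% and 22.5% of the GV span for GDF9 and 1.43% and 3.33% for BMP15. Such differences set a short peak against a gene-wide one and are not local changes. The 5 pairs rest on 3 GV peaks. After each list's median was subtracted, the differences became -0.028 for KIT, -0.15 and -0.38 for GDF9 and -0.71 and -0.19 for BMP15. The part of immunoprecipitation efficiency and depth in this offset was not tested.

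**Figure D3:**
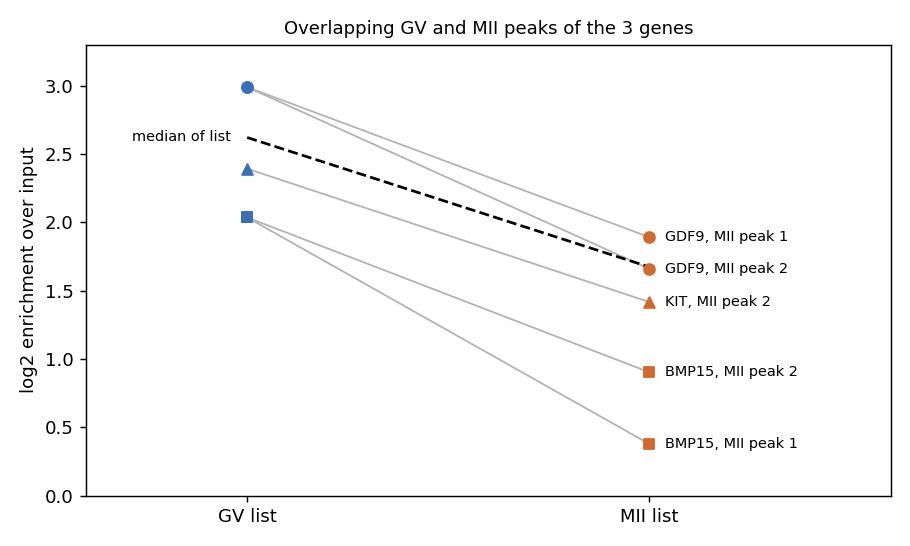
Log2 enrichment over input (vertical axis) of each overlapping pair of GV and MII peaks of GDF9 (circles), BMP15 (squares) and KIT (triangles), joined by lines, with the medians of the whole lists joined by the dashed line. All 5 pairs slope down with the list medians of 2.62 and 1.67, and the pair with the 5' BMP15 MII peak falls furthest, to 0.38. Both GDF9 pairs start from 1 gene-wide GV peak, and so do both BMP15 pairs.

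The authors' deposited table of differential peaks has 2 entries for each of the 3 genes, lower in MII for GDF9 and BMP15 and higher for KIT. Its rule for a call is an absolute log2 change of at least 1 with p under 0.05. By that rule 3 of the 6 entries were called, 2 higher and 1 lower, against 72.8% of all entries, 50.9% higher and 21.9% lower. Entries below 0 were 4 of 6 for these genes and 33.5% in the whole table, where the median was 1.03.

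For GDF9, the authors' deposited table gives a log2 change of -1.05 over the stop codon (44442696 to 44443650), which was called, and -0.215 over the start codon (44445098 to 44445396), with an adjusted p of 0.012 and below the fold of the rule. For BMP15, the authors' deposited table gives -0.852 for a start codon entry (88803967 to 88804086) and -0.787 for an exonic entry over 91.9% of the gene (88804175 to 88810269), neither past the fold. For KIT, the authors' deposited table gives 1.03 for an entry in the 5' UTR (70166692 to 70166782) and 1.58 for an exonic entry (70210024 to 70214327), both called. Both KIT entries lie where the MII list has a peak and the GV list has none. The internal KIT peak shared by both stages and the GV peak in the 3' UTR have no entry in that table.

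ACVR1B, BMPR1A, ACVR1 and TGFBR1 were the receptors of the growth factor pathway that were lower in MII, and FURIN, a convertase, was higher. These transcripts were measured in oocytes, whereas the receptors for GDF9 and BMP15 act in granulosa and cumulus cells. Of 14 listed receptors 10 were tested, and ACVRL1 passed the filter on low values only through MII. Among the other 9 genes 4 were lower and 0 higher in MII. The shares were 29.3% and 29.8% over all genes that averaged 1 FPKM or more in both stages. The median log2 change was -0.36 for these receptors and -0.0055 over those genes. ACVR1B, a type I receptor of activin-like ligands, had 42.3, 40.6 and 40.1 FPKM in GV libraries 1, 2 and 3 and 22.7, 24.8 and 22.7 FPKM in MII libraries 1, 2 and 3. The stages did not overlap, and it fell by 0.79 on the log2 scale (SE 0.057, limma adjusted p = 2.8e-05). BMPR1A, a type I receptor of bone morphogenetic proteins, fell by 0.42 (SE 0.056), from 35.3 ± 0.948 to 26.1 ± 1.26 FPKM (SD, n = 3 each).

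BMPR2, the type II receptor that binds both GDF9 and BMP15, was at 10.6, 10.4 and 11.5 FPKM in GV and 9.33, 9.17 and 9.53 FPKM in MII. Its log2 change was -0.19 with an adjusted p of 0.063 in limma, and it was called after quantile normalization (0.020) and without the variance trend (0.041; 0.020 to 0.19 over alternatives). BMPR1B, the type I receptor of BMP15, had 26.0 ± 1.74 FPKM in GV and 24.2 ± 0.458 FPKM in MII (SD, n = 3 each; limma adjusted p = 0.22). TGFBR1, the type I receptor of GDF9, was at 12.7 ± 1.15 FPKM in GV and fell to 9.65 ± 1.12 FPKM in MII (SD, n = 3 each; limma adjusted p = 0.018). That call ended without GV library 3 (0.062), MII library 2 (0.061) or MII library 3 (0.060; 0.0091 to 0.062 over alternatives). ACVR1, a type I receptor of bone morphogenetic proteins and activins, fell by 0.36. ACVRL1, an endothelial type I receptor, had 0.981 ± 0.154 FPKM in GV and 1.83 ± 0.315 FPKM in MII (SD, n = 3 each). It passed the filter on low values only through MII and rose by 0.51 (0.83 with a pseudocount of 0.1 and 0.19 with 5), and lost that call under quantile normalization (adjusted p = 0.14) and without GV library 1 (0.055) or 2 (0.053; 0.0073 to 0.14 over alternatives).

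Of the 14 SMAD proteins and regulators, 10 were tested, 4 lower and 2 higher (28.8% and 32.0% over all genes), with a median log2 change of -0.17. SMAD2 was the most abundant, at 136.6 ± 2.91 FPKM in GV and 116.2 ± 2.59 FPKM in MII (SD, n = 3 each), and fell by 0.23. The BMP branch genes SMAD1 and SMAD5 fell by 0.43 and 0.61, and SMURF2, a ubiquitin ligase that removes SMAD proteins and receptors, fell by 0.56. SMAD3, a partner of SMAD2, rose by 0.25, from 16.5 ± 0.987 to 19.8 ± 0.302 FPKM (SD, n = 3 each). SKI, a repressor of SMAD activity, rose by 0.14, but 10 of the 15 alternatives ended that call and left 1 higher.

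Other ligands of the family were low beside GDF9 and BMP15. Of 25 listed, 16 were in the table, and together these summed to 28.5 to 34.2 FPKM in GV libraries and 34.5 to 38.1 FPKM in MII libraries. Of those, 5 were tested, and the 2 called, NODAL and GDF6, passed the filter on low values only through MII, where they are high, so no count of calls is given for this list. BMP6, which oocytes also make, was at 20.1 ± 1.92 FPKM in GV and 21.5 ± 1.32 FPKM in MII (SD, n = 3 each; limma adjusted p = 0.36). NODAL was listed at 0 in every GV library and at 3.45, 2.84 and 2.67 FPKM in MII libraries 1, 2 and 3. GDF6 stayed below 1 FPKM on average in GV and reached 0.834, 2.24 and 2.81 FPKM in MII libraries 1, 2 and 3. That call ended under quantile normalization, where the adjusted p was 0.18 (0.00084 to 0.18 over alternatives).

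Of 19 genes for processing and extracellular antagonists, 5 were tested. FSTL3 passed the filter only through MII, and of the other 4 genes 2 were higher (29.8% over all genes that averaged 1 FPKM or more in both stages), with a median log2 change of 0.25. FURIN, a convertase that cuts proproteins of this family, rose from 53.3 ± 1.67 to 65.8 ± 1.32 FPKM (SD, n = 3 each), by 0.30 on the log2 scale (SE 0.044, limma adjusted p = 0.00077). GREM1, an antagonist of bone morphogenetic proteins that is also in the cumulus and granulosa list, rose from 2.39 ± 0.142 to 5.73 ± 1.18 FPKM. FSTL3, a binding protein of activins, had 0, 0.079 and 0.125 FPKM in GV libraries 1, 2 and 3 and at 2.46, 2.39 and 2.11 FPKM in MII libraries.

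**Figure D4:**
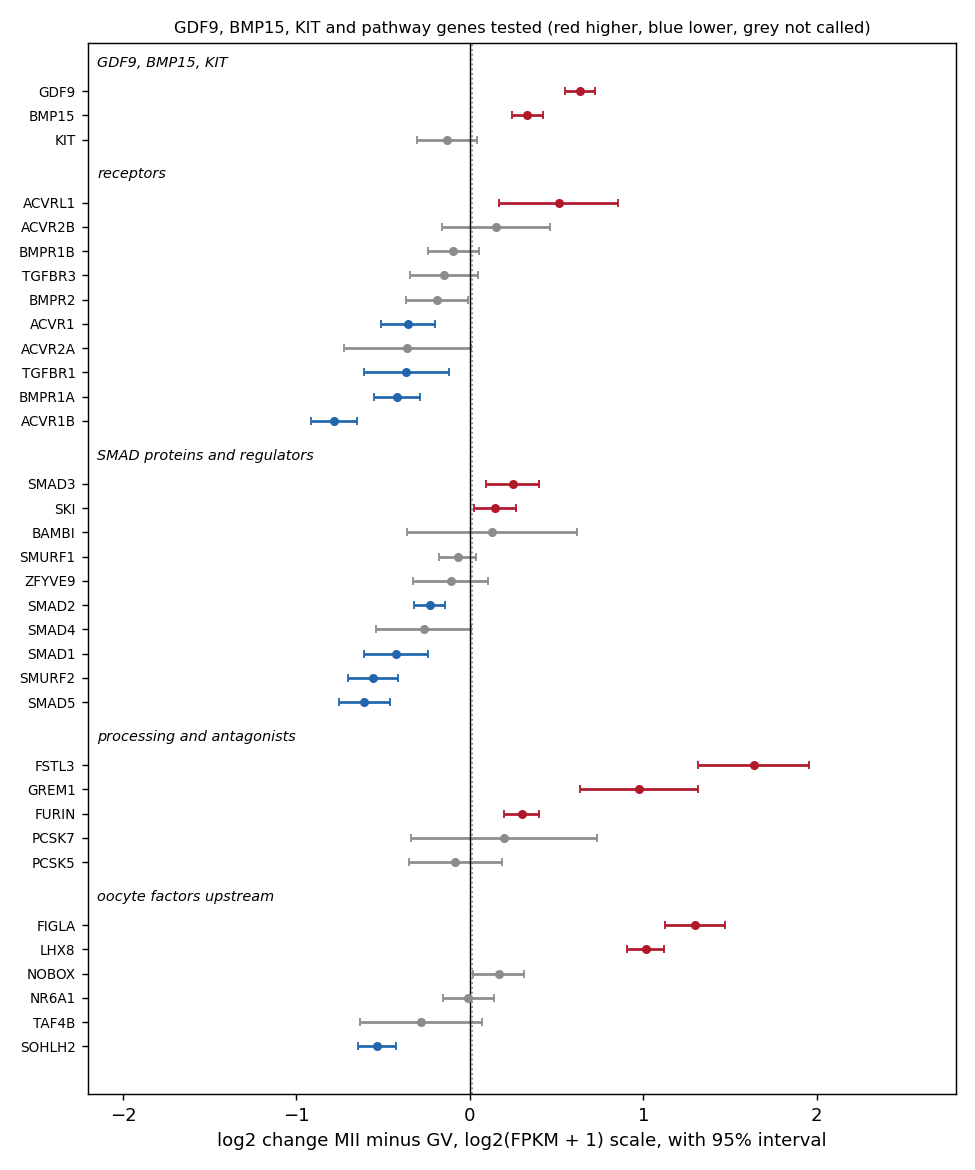
Log2 change of MII minus GV on the log2(FPKM + 1) scale (horizontal axis, with 95% intervals from limma) for GDF9, BMP15, KIT and the tested receptors, SMAD proteins, processing and antagonist genes and upstream factors. Red is higher and blue lower at an adjusted p under 0.05, grey not called, the dotted line is the median of all tested genes, 0.013, and ACVRL1 and FSTL3 passed the filter on low values only through MII.

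Around KIT, its ligand gene KITLG and SOS1 and NRAS of the RAS branch were lower in MII, and HRAS and MAPK3 were higher. KITLG had 14.6, 13.7 and 12.7 FPKM in GV libraries 1, 2 and 3 and 9.01, 9.62 and 11.1 FPKM in MII libraries 1, 2 and 3. Stages did not overlap, and it fell by 0.43 on the log2 scale (SE 0.098, limma adjusted p = 0.0069). Of 48 listed genes of KIT signalling 43 were tested, and LYN passed the filter on low values only through GV. Among the other 42 genes 17 were lower and 10 higher, or 40.5% and 23.8%, with a median log2 change of -0.073. Over all genes that averaged 1 FPKM or more in both stages the shares were 29.3% and 29.8%. SOS1, an exchange factor that loads RAS with GTP, fell by 0.89, the RAS gene NRAS by 0.83 and the SRC family kinase gene YES1 by 0.87. PTPN11, a phosphatase that relays KIT signals, was lower in MII, with 90.8 ± 2.71 FPKM against 117.4 ± 7.35 FPKM in GV (SD, n = 3 each).

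The RAS gene HRAS rose by 1.11, from 11.6 ± 0.361 to 26.2 ± 2.93 FPKM, and MAPK3, a kinase at the end of the RAS cascade, by 1.05, from 2.71 ± 0.556 to 6.64 ± 0.498 FPKM (SD, n = 3 each). The adaptor gene GAB2 and RPTOR, a subunit of mTOR complex 1, each rose by 0.53. With a pseudocount of 5 the changes of MAPK3 and RPTOR were 0.60 and 0.31. In the phosphoinositide 3-kinase branch, the kinase gene PDPK1 fell by 0.34 and the catalytic subunit gene PIK3CA by 0.30. The regulatory subunit gene PIK3R1 rose by 0.27 and FOXO3, a transcription factor that restrains primordial oocytes in mouse, by 0.31.

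Of 8 transcription factors known upstream of oocyte genes, 6 were tested, 2 higher and 1 lower (32.0% and 28.8% over all genes), with a median log2 change of 0.078. FIGLA rose from 83.7 ± 4.56 to 207.4 ± 20.1 FPKM and LHX8 from 38.5 ± 0.729 to 78.7 ± 3.04 FPKM, while SOHLH2 fell from 51.6 ± 0.837 to 35.3 ± 1.35 FPKM (SD, n = 3 each). NOBOX, which binds the Gdf9 promoter in mouse, was at 50.2 ± 0.905 FPKM in GV and 56.6 ± 4.69 FPKM in MII (SD, n = 3 each; limma adjusted p = 0.052). Keeping only genes averaging 5 FPKM or more (0.046) or leaving out MII library 3 (0.019) made it a call, with adjusted p from 0.019 to 0.13 over alternatives.

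Genes that GDF9 and BMP15 are known to induce in cumulus cells had 4 of 7 tested members lower and 2 higher in MII (28.8% and 32.0% over all genes), with a median log2 change of -0.55. Leaving out GV library 1, GV library 3, MII library 1 or MII library 2 left 1 higher. A filter at 5 FPKM, quantile normalization and a fit without the variance trend each did so too. PTGS2, which makes prostaglandins, fell by 1.23 and HAS2, a hyaluronan synthase, by 0.65. Of the 7 genes, 5 (CD44, HAS2, PTGS2, STAR and VCAN) are also cumulus and granulosa markers, as is KITLG. Of 29 cumulus and granulosa markers 20 were in the table and 12 were tested. VIM, which went from 6.31 to 0.429 FPKM, passed the filter on low values only through GV. Among the other 11 genes 6 were lower and 4 higher in MII. The shares were 29.3% and 29.8% over all genes that averaged 1 FPKM or more in both stages. Lower ones included GJA1, from 14.0 to 6.59 FPKM, and COL4A1, from 10.5 to 6.50 FPKM. Higher ones included CLU, from 2.25 to 6.48 FPKM, and SERPINE2, from 27.8 to 34.8 FPKM. Summed over that list the level was 276.9 to 290.4 FPKM in GV libraries and 270.3 to 275.8 FPKM in MII libraries, most of it from STAR (149.1 ± 7.20 and 167.2 ± 2.32 FPKM; SD, n = 3 each). FSHR was at most 0.140 FPKM in GV and listed at 0 in every MII library, PTX3 was listed at 0 in every GV library, and CYP19A1 was at 0.551 FPKM or lower throughout. Of 15 theca, blood and immune markers 7 were in the table, and these 7 summed to 32.4 to 34.2 FPKM in GV and 39.4 to 40.3 FPKM in MII libraries. CSF1R made up most of that, at 27.0 FPKM in GV and 28.9 FPKM in MII, VWF was at 4.90 and 7.00 FPKM, and CYP17A1, PECAM1 and TPSB2 were listed at 0 in every GV library. Of the 4 tested, VWF and HBA were higher, and HBA passed the filter only through MII. The part of cumulus RNA in the KITLG, HAS2 and PTGS2 changes was not tested.

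Peaks were also listed for pathway genes. Of the 10 tested receptors, 9 had a GV peak and 8 a MII peak (90% and 80%). Of the 43 tested genes of KIT signalling, 30 and 38 did (69.8% and 88.4%). The shares were 54.1% and 73.8% over all genes tested. ACVRL1 among the receptors passed the filter on low values only through MII, and LYN among the KIT signalling genes only through GV. No count of peaks is given for the ligands, since NODAL and GDF6 passed it only through MII. In the authors' deposited table the receptors had 14 entries, 2 called higher in MII and 7 lower. That is 14.3% and 50%, against 50.9% and 21.9% over the whole table. The higher ones were in BMPR1A and BMPR1B and the lower ones in ACVR1, ACVR1B, BMPR1B and BMPR2. Entries of the same gene are counted separately. KIT signalling genes had 52 entries in the authors' deposited table, 28 called higher and 9 lower, which is 53.8% and 17.3% against 50.9% and 21.9% over the whole table. BMPR1B had entries of both signs there, 2.42 in the 5' UTR, -1.24 for an exonic entry and -0.866, 0.721 and -2.48 in the 3' UTR.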

How the data were processed

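The authors deposited FPKM for each gene in the input libraries, and no values of single immunoprecipitated libraries were used. Enrichments and differential changes of peaks are the authors' log2 values, and the p-values that go with them are the authors' too, per the file headers. The submitters' processing notes name HISAT2 (2.0.4), fastp (0.19.4), HOMER (4.10), StringTie (2.1.2) and edgeR (4.1) without saying what each did. The peak caller, the pooling of libraries and the genome build were not given in the sources used here. In the files, peak starts are numbered from 0 (861 GV peaks start 1 base before their gene and 0 at its start) and are printed counting from 1.

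Groups came from sample titles. Genes averaging 1 FPKM or more across the 6 input libraries entered 1 fit on log2(FPKM + 1) in limma 3.58.1 (R 4.3.3, 2-sided moderated test with a variance trend, Benjamini-Hochberg at 0.05). The fitting code was also run on simulated libraries with independent noise and far fewer changed genes than were called here. That run cannot show how the fit behaves on these data. Ratios were tested by exact permutation in Python 3.11.15. FPKM keeps no read totals, so depth was estimated from steps between low values of short RNAs, where 43.5% to 51.5% of values came out whole (to within 0.05) for the step chosen, against a median of 11.8% to 13.9% over all steps tried, and no count test was run. Alternatives were pseudocounts of 0.1 and 5, other filters on low values, median scaling, quantile normalization, removal of mitochondrial genes, no variance trend, the replicate number as a block and each library left out. A shared strand and 1 bp in common made 2 peaks of a gene overlap.

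The 3 genes and the lists were chosen with earlier results of these data known. Of 186 list symbols 147 matched the table, and the others were not analysed here. Pathway genes were named for the largest called changes whose libraries did not overlap (up to 4 a list in each direction), for a mean of at least 20 FPKM, or as direct receptors or ligand. Not all are printed, and some are not reported here. PIK3CA, PIK3R1 and FOXO3 fell outside this rule and were chosen after their values were seen, for their place in the pathway, and their alternatives are not given. No sequence is printed, and the m6A motif was not examined, because no genome was used here.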

Additional observations from a re-analysis of the deposited data

How the results depend on the processing

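GDF9 and BMP15 kept their calls and direction under all 15 alternatives. Log2 changes ranged from 0.59 to 0.66 for GDF9 (0.61 to 0.66 with 1 library left out) and from 0.27 to 0.35 for BMP15 (0.31 to 0.35), with the lowest values after quantile normalization. KIT was not called under any, from -0.17 to -0.066. The difference of the log2 GDF9 to BMP15 ratio ranged from 0.28 to 0.32. Its exact permutation test cannot go below 0.1 with 3 against 3 libraries, and it gave p = 0.25 with the replicate block. Deviations of same-numbered libraries correlated at -0.055, -0.060 and 0.013. With 3 libraries per stage these correlations cannot show whether equal numbers share an animal or culture batch. With the replicate block, 6813 genes were called in place of 7140, and the log2 changes of 0.63, 0.33 and -0.13 kept their calls. Over all alternatives between 2677 and 5095 genes were called higher and between 2687 and 3990 lower. With a filter at 5 FPKM, 1 processing or antagonist gene was higher. Of 42 called pathway genes under the naming rule, 33 kept their call under every alternative run and 9 lost it under at least 1. Changes near 0 turned sign in FOXO1 (-0.022 to 0.056 with a library left out, lowest without MII library 1), in MAP2K1 (-0.0035 with median scaling, -0.019 after quantile normalization, -0.0034 without mitochondrial genes, and -0.0017 to 0.017 with a library left out, below 0 without GV library 2 at -0.0017 and MII library 1 at -0.00076) and in NR6A1 (-0.063 to 0.028 with a library left out, above 0 without GV library 1 at 0.0024, GV library 2 at 0.028 and MII library 3 at 0.025), none of them called. Above the median enrichment of their list, 2 of 4 GV and 1 of 8 MII peaks of the 3 genes remained. With a reciprocal overlap of 50% of each span, 1 GV and 1 MII peak overlapped, the internal KIT peak, in place of 3 and 5. Peaks were used as 1 list a stage, so the spread of their enrichments between libraries is not given.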
